A study of Mus musculus with 2 samples.

Results

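Among the barcodes of tumour-infiltrating immune cells there were droplets that carried T cell and macrophage transcripts at the same time. A barcode entered this group when it held at least 3 UMIs (unique molecular identifiers, 1 for each transcript molecule that was caught) of Cd3d, Cd3e, Cd3g and Trac together, and at least 20 UMIs of C1qa, C1qb, C1qc, Lyz2 and Csf1r together. The group held 1072 of 9059 kept barcodes, with 340 of 4058 in the wild-type library (WT) and 732 of 5001 in the Ifnar1-SA library. Barcodes were kept from 1000 UMIs and 500 genes upward if mitochondrial genes took no more than 10%, and no doublets were removed. Barcodes that met only the T cell minimum (T only droplets, 1792 in WT and 1734 in Ifnar1-SA) and those that met only the macrophage minimum (macrophage only droplets, 1492 and 1942) served as references.

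The tumours had grown from MC38 cells, a colon adenocarcinoma line of the mouse, in WT mice and in mice of the Ifnar1-SA genotype, and the immune cells were taken on day 14 with no further treatment. Ifnar1 codes for one subunit of the receptor for type I interferons. The labels do not say what SA stands for, and give neither the number, age and sex of the animals nor a sort. They call the cells immune cells in one place and CD8 T cells in another, and the kept barcodes held many macrophages. Each genotype was 1 library of 10x droplet single-cell RNA-seq, so no test between genotypes or between droplet populations was made, "higher" and "lower" describe these libraries, and all intervals are 95% intervals that cover counting error only. In all, 55497066 UMIs were counted in WT and 62732220 in Ifnar1-SA.

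T cells recognise peptide antigen through a receptor that signals through the CD3 chains. Macrophages take up dead cells, present antigen to T cells and make complement C1q, and in tumours both types are abundant and touch each other. A droplet with transcripts of both types can hold a pair of cells that entered separately, a pair that was attached before loading, or a macrophage with T cell material. These cannot be told apart with these files.

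The mixed droplets made up 8.38% of kept barcodes in WT (interval 7.54 to 9.27) and 14.6% in Ifnar1-SA (13.7 to 15.6). The difference was 6.26 percentage points and the ratio 1.75. Of all droplets that met the T cell minimum, 15.9% in WT and 29.7% in Ifnar1-SA also met the macrophage minimum. Of all that met the macrophage minimum, 18.6% and 27.4% also met the T cell minimum. T only droplets were 44.2% of kept barcodes in WT and 34.7% in Ifnar1-SA, and macrophage only droplets 36.8% and 38.8%. These shares follow from the rule that chose the droplets and are given as a description. Of all kept barcodes, 7 sequences occurred in both libraries, and 0 of these were mixed droplets in both.

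**Figure D1:**
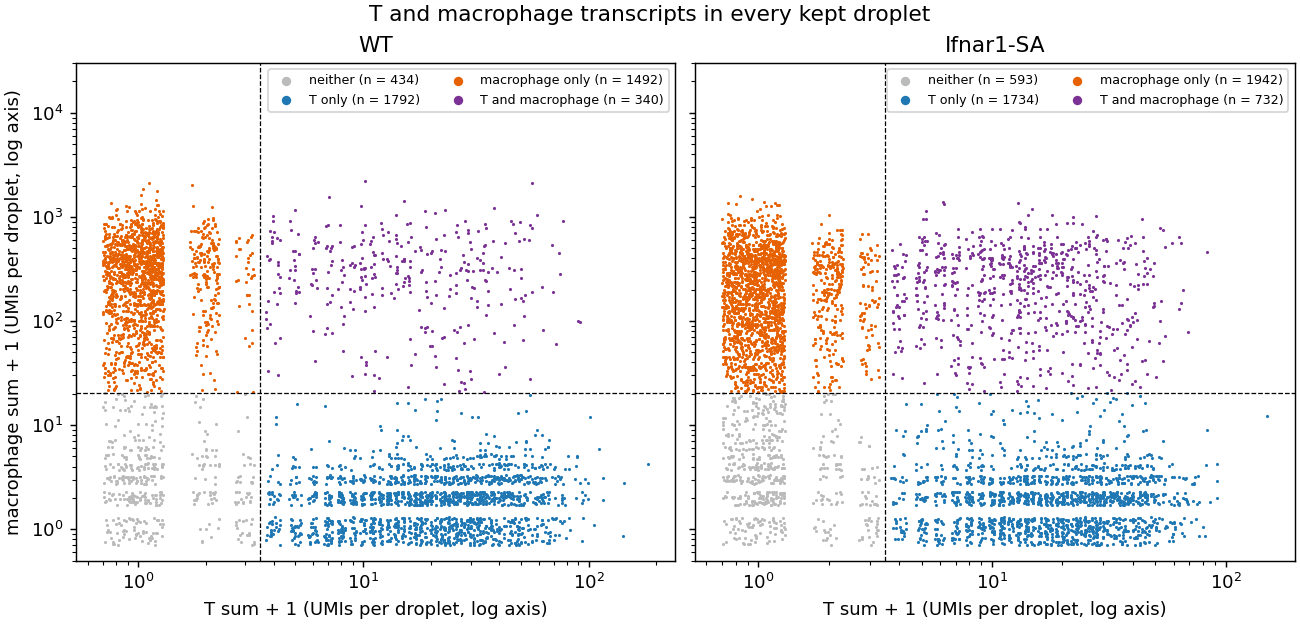
Each point is 1 kept droplet, placed by its summed UMIs of the 4 T cell genes (x axis, UMIs plus 1, log axis) and of the 5 macrophage genes (y axis, UMIs plus 1, log axis), with a small random shift so that equal counts can be seen, for WT (left) and Ifnar1-SA (right). Dashed lines mark the minima of 3 and 20 UMIs; the mixed droplets fill the upper right, 340 in WT and 732 in Ifnar1-SA, while T only droplets lie mostly at macrophage sums of 0 to 4.

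The minima cut through thinly filled ranges. Of droplets with at least 20 macrophage UMIs, 29 in WT and 43 in Ifnar1-SA had a T cell sum of exactly 3, just inside the rule. Just outside it, 35 and 75 had a sum of 2, 185 and 250 a sum of 1, and 1272 and 1617 a sum of 0. UMIs of 20 T cell genes that the rule did not use had a median of 10 in WT and 11 in Ifnar1-SA at a sum of 3, of 4 and 6 at a sum of 2, and of 0 in both libraries at 1 and 0. On the other side, of droplets with at least 3 T cell UMIs, 14 in WT and 31 in Ifnar1-SA had 20 to 29 macrophage UMIs, 18 and 43 had 10 to 19, 44 and 65 had 5 to 9, and 1730 and 1626 had 0 to 4. Barcodes of 10 to 100 UMIs, which mostly carry RNA from outside cells, had 0.187% (WT) and 0.176% (Ifnar1-SA) of their UMIs in the T cell genes of the rule and 1.10% and 0.936% in its macrophage genes.

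The mixed droplets were deep, and their depth was close to the sum of the depths of a T only and a macrophage only droplet. WT droplets of this kind had a median of 16192.5 UMIs and those of Ifnar1-SA 14282.5. T only droplets had medians of 5181.5 and 4459, and macrophage only droplets of 10733.5 and 8950. The medians of these references added up to 15915 in WT and 13409 in Ifnar1-SA, so that the mixed droplets reached 1.02 and 1.07 times the sum. The range was wide, from 2206 to 75837 UMIs in WT and from 2285 to 96861 in Ifnar1-SA. They held a median of 3477 genes in WT and 3384 in Ifnar1-SA, against 1741 and 1604.5 in T only and 2590 and 2437 in macrophage only droplets. Their median mitochondrial share was 2.91% and 2.95%.

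The share of mixed droplets moved with depth in both libraries. It was 1.201% in WT and 1.80% in Ifnar1-SA among barcodes of 1000 to under 5000 UMIs, and 4.22% and 11.4% from there to under 10000 UMIs. It was 15.4% and 28.2% at 10000 to under 20000 UMIs, 23.9% and 41.8% at 20000 to under 40000, and 7.30% and 6.58% from 40000 on. Ifnar1-SA had the higher share in each range below 40000 UMIs, and the intervals lay apart between 5000 and 40000 UMIs. Below 5000 UMIs and from 40000 on the intervals overlapped.

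**Figure D2:**
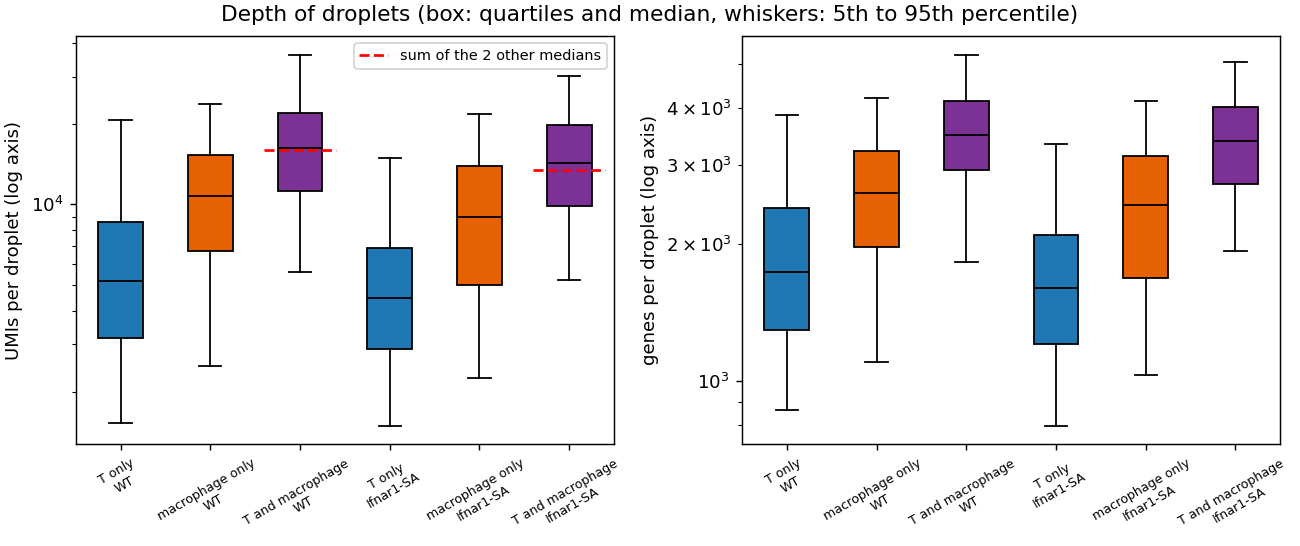
UMIs (left) and genes (right) per droplet on log axes for T only, macrophage only and mixed droplets of each library; boxes give quartiles and median, whiskers the 5th to 95th percentile, and red dashed lines the sum of the T only and macrophage only medians. The medians of the mixed droplets, 16192.5 and 14282.5 UMIs, lie near the red lines at 15915 and 13409.

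The rule genes chose the droplets, so their levels are given as a description. Levels are given as CPM, the counts scaled to 1000000 UMIs in the summed droplets of a population. Cd3e, a chain of the T cell receptor complex, stood at 160 CPM in mixed droplets of both libraries, against 529 (WT) and 547 (Ifnar1-SA) in T only and 1.42 and 3.12 in macrophage only droplets. C1qa, a chain of complement C1q, stood at 5196 and 4745 CPM, against 7419 and 6592 in macrophage only and 39.95 and 59.7 in T only droplets. Lyz2, the lysozyme of phagocytes, stood at 6899 and 4841 CPM and was also lower in Ifnar1-SA in macrophage only droplets (9352 in WT, 6806 in Ifnar1-SA). The T cell sum had a median of 13 UMIs in mixed droplets of both libraries and of 20 and 18 in T only droplets. The macrophage sum had a median of 295.5 in WT and 227.5 in Ifnar1-SA, against 287 and 189 in macrophage only droplets.

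Genes outside the rule also showed transcripts of both cell types. Of 20 further T cell genes, all were detected, and the median ratio of their CPM in mixed over T only droplets was 0.35 in WT and 0.33 in Ifnar1-SA, over the 19 genes with enough counts. For the 20 further macrophage genes the median ratio of mixed over macrophage only droplets was 0.72 and 0.73. Trbc2, a constant region of the T cell receptor beta chain, was found in 76.2% of mixed droplets in WT and 75.7% in Ifnar1-SA, against 86.6% and 84.8% of T only and 5.70% and 6.23% of macrophage only droplets. After each droplet was thinned to 2000 UMIs the Trbc2 shares were 31.5% and 31.2% in mixed, 72.3% and 71.8% in T only, and 1.31% and 1.60% in macrophage only droplets, with 0 mixed, 205 and 202 T only and 40 and 62 macrophage only droplets left out as too shallow. Tyrobp, a signalling adaptor of myeloid cells, was found in 99.4% and 99.7% of mixed droplets (91.5% and 94.4% after thinning), against 12.4% and 16.6% of T only droplets (5.42% and 10.2% after thinning). Defining markers of other cell types were rare in the mixed droplets. Xcr1 and Clec9a of conventional dendritic cells reached 2 UMIs in 1.76% (WT) and 1.09% (Ifnar1-SA), and Siglech of plasmacytoid dendritic cells in 0% of both. Rhox5, a gene of MC38 cells, reached 3 UMIs in 1.76% and 0.410%, and S100a8 and S100a9 of neutrophils 5 UMIs in 1.18% and 0%. The B cell genes Cd79a, Cd79b and Ms4a1 reached 2 UMIs in 6.76% and 9.43%, and in 5.23% and 7.16% of macrophage only droplets. Cd79a itself was found in 1 mixed droplet of each library and in 0 macrophage only droplets. Of 8 listed B and plasma cell genes, only Cd79b had a mean of at least 20 CPM in mixed droplets.

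The mean profile of the mixed droplets lay between the references. Without a test, 0 of 5841 genes were above both references and 0 below both in both libraries (0% called in each direction). Such a call needed an interval wholly past 1.5-fold. The 5841 genes left out the rule genes and mitochondrial, ribosomal, antigen receptor segment, sex-linked and predicted genes. Of all these genes 84.5% in each library had a level between the T only and the macrophage only level. Of the 2260 genes in WT and 2088 in Ifnar1-SA whose references differed at least 2-fold, 99.4% and 99.6% lay between. A weighted mean of 30% T only and 70% macrophage only profile came nearest to the mixed profile in both libraries. The median gene deviated from that mean by 0.083 (WT) and 0.075 (Ifnar1-SA) on the log2 scale, and 99.1% and 99.3% of genes were within 1.5-fold of it. T only droplets supplied 32.6% and 33.3% of the summed median depth above. With references weighted to the same partner classes as the mixed droplets, 0 of 5861 genes were outside in either direction in both libraries.

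In single libraries a few genes were outside both references. Above both lay Retnla in WT and Col1a1 and Timp1 in Ifnar1-SA, and single droplets carried most of the UMIs of these genes. Retnla, a secreted product of alternatively activated macrophages, had 1825 UMIs in 5 mixed droplets of WT, of which 1789 were in 1 droplet. In Ifnar1-SA, Col1a1, a collagen chain of fibroblasts, had 529 UMIs with 502 in 1 droplet, and Timp1, a protease inhibitor, had 472 with 354 in 1 droplet. Below both lay Col1a1, with 6 UMIs in 5 droplets, and Serpinf1, with 55 UMIs in 15 droplets, in WT, and Cd34, with 78 UMIs in 24 droplets, in Ifnar1-SA. Fyb, an adaptor protein of T cell and myeloid signalling, lay above the higher reference by 0.20 (interval 0.12 to 0.28) in WT and 0.17 (0.11 to 0.23) in Ifnar1-SA on the log2 scale, below the fold used for a call, and it was chosen after its values were seen.

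**Figure D3:**
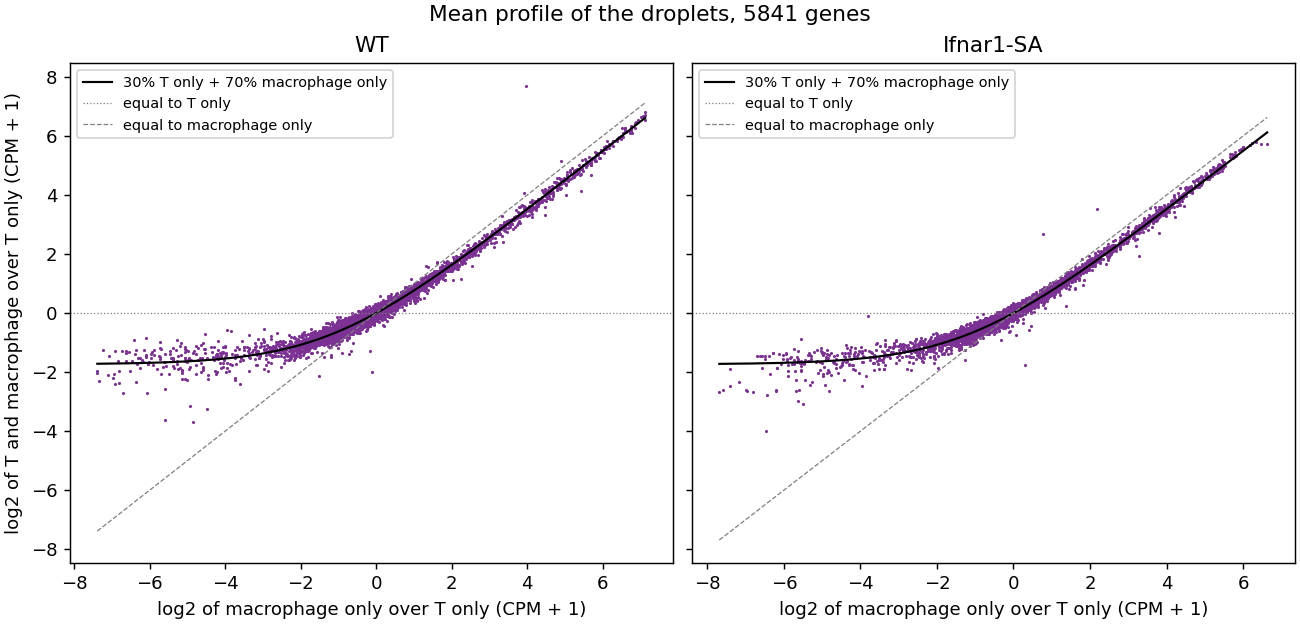
Each point is 1 of 5841 genes; the x axis is the log2 ratio of macrophage only over T only and the y axis the log2 ratio of mixed over T only droplets, both from CPM plus 1, for WT (left) and Ifnar1-SA (right). The black line is the weighted mean of 30% T only and 70% macrophage only, and 99.1% (WT) and 99.3% (Ifnar1-SA) of genes lie within 1.5-fold of it, with Retnla as the far point in WT.

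The T cell in the droplets was read from genes the rule did not use. Foxp3, the transcription factor that defines regulatory T cells (ENSMUSG00000039521, chromosome X, 7573644 to 7595245, GRCm38), marked the regulatory partner with at least 1 UMI. Cd8a (chromosome 6, 71373427 to 71379173) and Cd8b1 (chromosome 6, 71322788 to 71337494), the chains of the CD8 coreceptor of cytotoxic T cells, marked the CD8 partner with at least 2 UMIs together and no Foxp3. In WT, 93 mixed droplets held a Foxp3 partner (27.4%, 22.7 to 32.4), 120 a CD8 partner (35.3%, 30.2 to 40.6) and 127 neither (37.4%, 32.2 to 42.7). In Ifnar1-SA, 245 held a Foxp3 partner (33.5%, 30.1 to 37.0), 160 a CD8 partner (21.9%, 18.9 to 25.03) and 327 neither (44.7%, 41.0 to 48.4). The CD8 share was lower in Ifnar1-SA with intervals apart, while the Foxp3 intervals overlapped. Transcripts of Foxp3 and CD8 together were found in 8 (2.35%) and 18 (2.46%) droplets, which are counted under Foxp3. Macrophage only droplets held Foxp3 in 0.335% and 1.08% and at least 2 CD8 UMIs without Foxp3 in 0.670% and 0.721%. Their median depths were 10733.5 and 8950 UMIs. The rule keeps them to T cell sums under 3, which holds these shares low, so they do not measure the background of free RNA.

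CD8 partners were less frequent in the mixed droplets than among T only droplets of the same library. T only droplets held a CD8 T cell in 56.0% of WT and 39.5% of Ifnar1-SA, Foxp3 in 20.4% and 29.5%, and neither in 23.7% and 31.0%. There were 1.29 CD8 partners for each Foxp3 partner in mixed droplets of WT and 2.75 in T only droplets. The same ratio was 0.653 and 1.34 in Ifnar1-SA. Seen from the T cell, 20.3% (16.7 to 24.3) of Foxp3 droplets, 10.7% (8.94 to 12.6) of CD8 droplets and 23.05% of droplets with neither were mixed in WT. The values in Ifnar1-SA were 32.4% (29.04 to 35.8), 18.9% (16.3 to 21.7) and 37.8%. Each class was thus more often mixed in Ifnar1-SA, and in both libraries the CD8 class was mixed least often, with intervals apart from those of the other classes.

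The classes depend on how many T cell UMIs a droplet yields. The T cell sum of mixed droplets had a median of 19 (WT) and 18 (Ifnar1-SA) with a Foxp3 partner, 15.5 and 13 with a CD8 partner, and 9 and 9 with neither. When droplets were thinned to 5000 UMIs, which leaves fewer T cell UMIs in a mixed droplet than in a T only droplet, 49 Foxp3 and 63 CD8 partners were left in WT and 134 and 92 in Ifnar1-SA, against 156 and 575, and 227 and 340, among T only droplets. The thinned Foxp3 share was then lower in mixed (15.1% and 19.1%) than in T only droplets (16.6% and 30.1%), the reverse of the unthinned order, so no order is read from the Foxp3 shares between these populations. Set against the T cell UMIs themselves, Foxp3 had 3.11 UMIs per 100 UMIs of the T cell genes of the rule in mixed droplets of WT and 1.96 in T only droplets (log2 ratio 0.66, 0.44 to 0.89). In Ifnar1-SA it had 4.94 and 3.31 (log2 ratio 0.58, 0.44 to 0.72). Cd8a and Cd8b1 together had 16.8 and 23.5 in WT (log2 ratio -0.49, -0.58 to -0.40) and 9.19 and 17.4 in Ifnar1-SA (-0.92, -1.01 to -0.83).

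Several other genes of helper and regulatory T cells, on the same scale per 100 T cell UMIs, were higher in mixed than in T only droplets in both libraries. Cd4, the coreceptor of helper and regulatory T cells, had 3.16 in mixed and 1.85 in T only droplets of WT, and 4.25 and 2.32 in Ifnar1-SA. Macrophages also carried some Cd4 (7.04 and 7.38 CPM in macrophage only droplets, beside 33.9 and 44.5 in mixed droplets). The log2 ratios in WT and Ifnar1-SA were 0.34 and 0.43 for Ikzf2, a transcription factor of regulatory T cells, 0.21 and 0.35 for the inhibitory receptor Ctla4, and 0.50 and 0.49 for Il2ra, the alpha chain of the interleukin 2 receptor. Tnfrsf4, the costimulatory receptor OX40, had 0.38 and 0.34. Tnfrsf9, a costimulatory receptor of activated T cells, was not apart in WT (0.01, -0.08 to 0.11) and had 0.22 (0.15 to 0.29) in Ifnar1-SA. The inhibitory receptor Pdcd1 had -0.41 and -0.30, and the cytotoxic protease Gzmb -0.36 and -0.10. In summed UMIs, the cytokine genes Ifng (0.74 and -0.90) and Xcl1 (0.40 and -0.69) went opposite ways in the libraries. A single droplet held 290 of 601 Ifng UMIs in WT and 333 of 833 in Ifnar1-SA. The 1256 Xcl1 UMIs of the WT mixed droplets lay in 46 droplets. Ifng was found in 21.2% (WT) and 14.3% (Ifnar1-SA) of mixed droplets, and in 30.2% and 24.9% of T only droplets. Xcl1 was found in 13.5% and 9.97%, and in 17.5% and 18.3%. These shares depend on the T cell sum, which was lower in mixed droplets, so no order is read for Ifng or Xcl1.

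At least 1 Cd4 UMI was found in 50.5% (WT) and 56.3% (Ifnar1-SA) of mixed droplets with a Foxp3 partner, in 44.1% and 45.3% of those with neither and in 6.67% and 5.63% of those with a CD8 partner. The share in macrophage only droplets, which the rule keeps to T cell sums under 3, was 4.49% and 3.91%. The group with neither stood above that rough background and the CD8 group close to it. Constant region genes of the gamma-delta T cell receptor reached 3 UMIs in 2.65% and 0.683% of mixed droplets, and the NK cell genes Ncr1 and Klrb1c 2 UMIs in 0.294% and 0.273%. Cell cycle genes reached at least 10 UMIs in 37.4% (WT) and 33.1% (Ifnar1-SA) of mixed droplets, in 29.2% and 18.6% of T only and in 20.1% and 17.4% of macrophage only droplets, at the depths given above. By T partner this share was 45.2% and 41.2% with Foxp3, 41.7% and 34.4% with CD8 and 27.6% and 26.3% with neither.

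**Figure D4:**
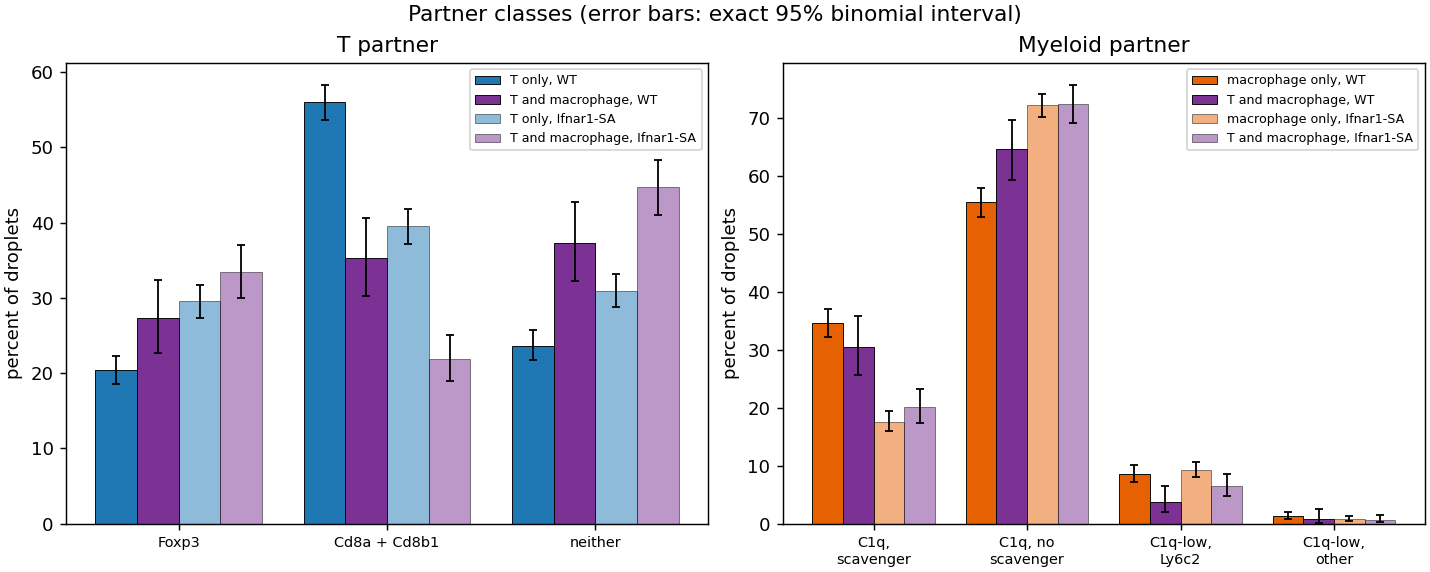
Percent of droplets in each T partner class (left) and myeloid partner class (right) for the mixed droplets and the matching reference of each library; error bars are exact 95% binomial intervals. CD8 partners make up 35.3% (WT) and 21.9% (Ifnar1-SA) of mixed droplets, below the 56.0% and 39.5% of T only droplets, whereas scavenger partners make up 30.6% and 20.2%, beside 34.7% and 17.6% of macrophage only droplets.

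The myeloid partner was mostly a C1q macrophage, which the rule favours since C1q genes are part of it. Droplets with at least 10 C1q UMIs were split by Mrc1, Folr2, F13a1 and Cbr2, genes of tissue-resident scavenger macrophages, at 3 UMIs together. In WT, 104 mixed droplets (30.6%, 25.7 to 35.8) had a scavenger partner, 220 (64.7%) a C1q partner under that minimum, 13 (3.82%) had fewer than 10 C1q UMIs with at least 2 of the monocyte gene Ly6c2, and 3 had neither. In Ifnar1-SA the numbers were 148 (20.2%, 17.4 to 23.3), 531 (72.5%), 48 (6.56%) and 5. Scavenger partners were less frequent in Ifnar1-SA with intervals apart, and the same held for macrophage only droplets, where they made up 34.7% in WT and 17.6% in Ifnar1-SA. Ly6c2 is also carried by T cells, and 29.1% and 28.5% of T only droplets met the same Ly6c2 class, so in a mixed droplet that class does not name a monocyte.

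Seen from the macrophage, 16.7% of scavenger, 21.0% of other C1q and 9.22% of C1q-low Ly6c2 droplets were mixed in WT, and 30.2%, 27.5% and 21.0% in Ifnar1-SA. The order of the scavenger and the other C1q class was not the same in the libraries, and their intervals overlapped in each. The scavenger share was also taken by T partner. In WT a scavenger partner was found in 30.1% of droplets with Foxp3, 30.8% with CD8 and 30.7% with neither. In Ifnar1-SA the shares were 20%, 23.8% and 18.7%, with overlapping intervals.

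On the scale per 100 macrophage UMIs of the rule, the scavenger genes together were lower in mixed than in macrophage only droplets of WT (log2 ratio -0.36, -0.45 to -0.27) and not apart in Ifnar1-SA (0.08, -0.01 to 0.18). F13a1, a transglutaminase subunit of monocytes and resident macrophages, had -0.82 in WT and -0.01 in Ifnar1-SA. Ccl8, a chemokine of resident-type macrophages, had -0.02 and -0.42. Arg1, which degrades arginine, had 0.17 and 0.22, and Spp1, the secreted protein osteopontin, 0.09 and 0.19. Apoe, an apolipoprotein that macrophages secrete, had -0.11 and -0.04. Arg1 reached at least 3 UMIs in 36.2% of mixed droplets in WT and 23.6% in Ifnar1-SA, and in 31.3% and 19.6% of macrophage only droplets.

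The Ifnar1-SA library held RNA of both sexes, which gave a readout of mixing that does not depend on cell type genes. Xist is transcribed from the inactive X chromosome of female cells, and Ddx3y, Eif2s3y, Kdm5d and Uty lie on the Y chromosome. Of droplets with either kind of transcript, 140 of 712 mixed droplets held both (19.7%, 16.8 to 22.8). The share was 27 of 1537 (1.76%, 1.16 to 2.55) in T only and 95 of 1586 (5.99%, 4.87 to 7.27) in macrophage only droplets. Among droplets of 10000 to under 20000 UMIs, it was 17.1% (13.4 to 21.4), 3.55% and 7.11%. By T partner, it was 19.8% with Foxp3, 28.0% (21.2 to 35.7) with CD8 and 15.4% (11.6 to 19.9) with neither, so that the CD8 share lay apart from the last. These classes were not matched for depth, with medians of 15373, 15070 and 12973 UMIs. In WT 0 of 340 mixed droplets held both, with an upper limit of 1.08%, and Y-linked UMIs were found in 3 T only and 1 macrophage only droplet. The sexes were thus not balanced between the libraries. Sex cannot be told apart from genotype in comparisons between the libraries that use all droplets, whether given above or below. Among droplets with Xist and no Y-linked UMI, the mixed share was higher in Ifnar1-SA by 7.38 percentage points (ratio 1.81). The 20 genes named by the genotype ratio stayed past the 1.5-fold limit in the same direction there. The part of sex in the other comparisons was not tested.

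Between genotypes, 29 genes of the mixed droplets were higher in Ifnar1-SA (0.581%) and 24 lower (0.481%), with the interval wholly past 1.5-fold. This was out of 4991 genes with a mean of at least 20 CPM, again without the rule genes and gene groups left out above. With median ratio scaling in place of total UMIs the split was 19 higher and 33 lower. T only droplets had 61 higher (1.23% of 4961) and 33 lower (0.665%), and macrophage only droplets 17 higher (0.365% of 4663) and 21 lower (0.450%). The median log2 ratio over all genes in the mixed droplets was 0.06, and 63.7% of all genes tested were higher in Ifnar1-SA, beside 55.0% in T only and 69.4% in macrophage only droplets. Counts of higher genes in the lists below are to be read against these shares.

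Genes induced by type I interferon were higher in the mixed droplets of Ifnar1-SA. Of the 48 measured genes of the list, 46 (95.8%, beside 63.7% of all genes) were higher, 9 of them past the 1.5-fold limit (0.581% of all genes) and 0 lower past it, with a median log2 ratio of 0.55 beside 0.06 over all genes. The list median was 0.66 in T only droplets (40 of 41 higher, 17 past the limit) and 0.38 in macrophage only droplets (47 of 49 higher, 2 past the limit). Ifi44 had 44.0 CPM in WT and 89.0 in Ifnar1-SA, log2 ratio 1.02 (0.82 to 1.22). Ifit1, which binds foreign RNA, had 87.5 and 168 (0.94, 0.80 to 1.08), and its relative Ifit3 had 134 and 246 (0.88, 0.76 to 0.99). Slfn8, of the Schlafen family, had 36.2 and 66.8 (0.88, 0.66 to 1.11). Irf7, the transcription factor that amplifies the response, had 328 and 524 (0.67, 0.60 to 0.75), with log2 ratios of 1.45 in T only and 0.55 in macrophage only droplets.

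The most abundant members of the list differed by less. Ifi27l2a had 3853 CPM in WT and 5566 in Ifnar1-SA (log2 ratio 0.53), Ifitm3, an antiviral membrane protein, 2625 and 3533 (0.43), and Ly6e 1590 and 1946 (0.29). Isg15, a protein modifier, had 731 and 1051 (0.52). The members that were not higher were Pnpt1 (-0.04) and Oas1a (-0.18). By T partner the list median was 0.56 with Foxp3, 0.51 with CD8 and 0.51 with neither, while T only droplets of the same classes had 0.68, 0.34 and 0.69. By myeloid partner it was 0.58 with scavenger and 0.58 with other C1q partners, beside 0.41 and 0.33 in macrophage only droplets. These comparisons share their libraries, and differences between the medians were not tested. Of the 16 measured genes that lean to interferon gamma, 13 were higher, with a median of 0.25 and 0 past the limit.

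**Figure D5:**
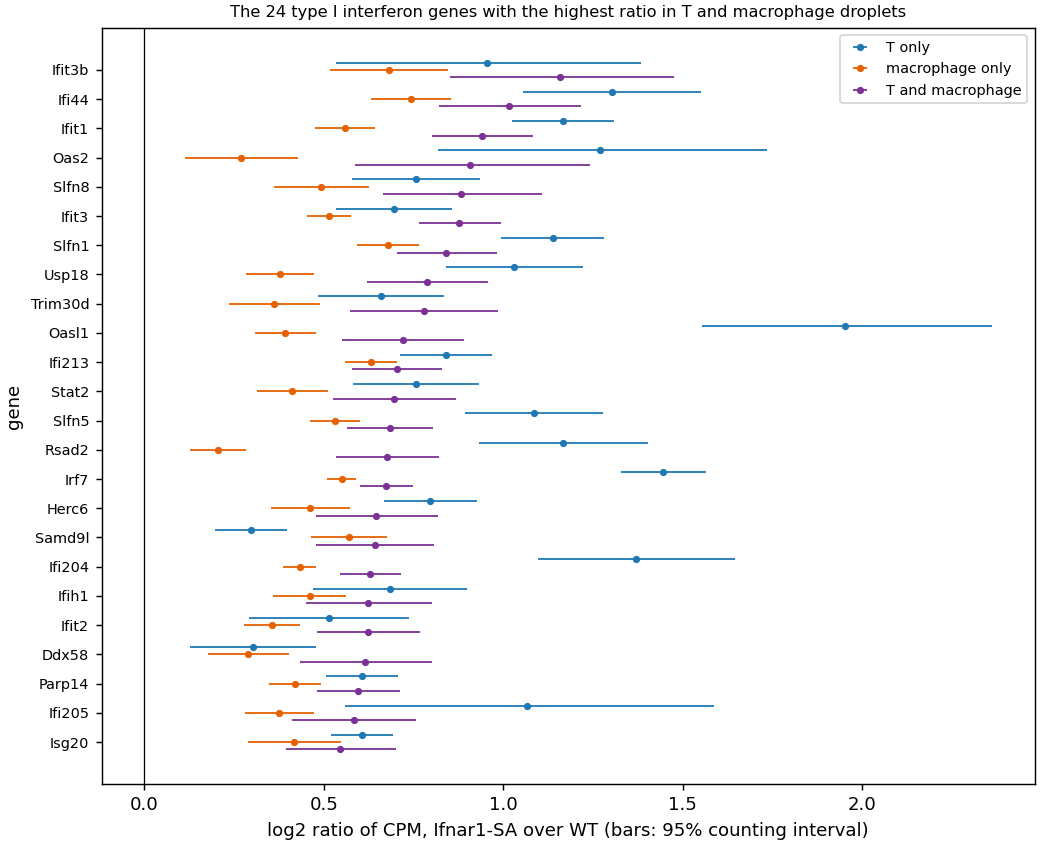
Log2 ratio of CPM in Ifnar1-SA over WT (x axis) for the 24 type I interferon genes with the highest ratio in the mixed droplets, with T only and macrophage only droplets beside them; bars are 95% counting intervals. The genes were picked by their value in mixed droplets, all 24 lie above 0 in each population, and Irf7 lies at 0.67 in mixed, 1.45 in T only and 0.55 in macrophage only droplets.

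Genes of T cell subsets were compared next. Of 14 measured CD8 effector genes, 4 were higher and 10 lower in Ifnar1-SA, 1 and 4 past the limit, with a median of -0.53. Cd8a had 87.3 CPM in WT and 46.7 in Ifnar1-SA (log2 ratio -0.90), and Cd8b1 92.6 and 49.5 (-0.91). In T only droplets these genes had -0.30 and -0.38. Gzmb went the other way, with 256 and 443 (0.79, 0.71 to 0.88). The protease Gzma had 57.8 and 15.6 (-1.89), but 5 droplets held 92.5% of its UMIs in WT. Of 11 measured regulatory T cell genes 11 were higher, between 0.05 and 0.63 with a median of 0.40 and 0 past the limit. Foxp3 had 33.4 and 51.7 CPM (0.63, 0.40 to 0.87), Ikzf2 294 and 402 (0.45), Ctla4 241 and 323 (0.42) and Tnfrsf4 287 and 380 (0.41). Within droplets of one partner class these lists were nearer to 0: the regulatory list had a median of 0.18 with Foxp3 partners and the CD8 effector list one of -0.14 with CD8 partners. The 19 measured further T cell genes had a median of 0.01, with 10 higher and 9 lower.

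Genes of scavenger macrophages were compared in the same way. Of 7 measured of the 12 resident-type scavenger genes 6 were lower, 3 past the limit, with a median of -0.71, and macrophage only droplets had a median of -0.75. Mrc1, the mannose receptor, had 111 CPM in WT and 67.8 in Ifnar1-SA (-0.71), and Folr2, a folate receptor, 43.5 and 22.7 (-0.94). Maf, a transcription factor that T cells carry as well, was the 1 that was higher, with 264 and 389 (0.56). Ccl8 had 1229 and 552 (-1.16), with 31.1% and 26.1% of its UMIs in 5 droplets. The chemokines Ccl6 (186 and 73.7, -1.34) and Cxcl2 (253 and 131, -0.95) and the iron carrier Trf (173 and 76.3, -1.18) were lower as well. For Ccl6, 5 droplets held 53.5% of the UMIs in WT and 14.8% in Ifnar1-SA. All of these lower genes had log2 ratios between -1.22 and -0.75 in macrophage only droplets.

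Of 6 measured genes of MHC class II presentation 6 were lower in Ifnar1-SA, 2 past the limit, with a median of -0.47, as were 7 of 7 in macrophage only droplets with a median of -0.61. Cd74, the invariant chain, had 7341 CPM in WT and 4656 in Ifnar1-SA (-0.66). H2-Ab1 had 3060 and 2178 (-0.49) and H2-Eb1 3173 and 2026 (-0.65). MHC class I genes had a median of 0.09, near that of all genes, with 13 of 14 higher. Of 9 measured monocyte genes 6 (66.7%) were higher, near the share of all genes, with a median of 0.34 and 1 lower past the limit. Ly6c2 had 621 and 846 (0.45) and the chemokine receptor Ccr2 223 and 324 (0.54). Slfn4, an interferon-inducible gene of myeloid cells, had 58.1 and 117 (1.01), and Sirpb1b, a receptor of phagocytes, 33.7 and 62.4 (0.89).

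Several named genes rested on few droplets. Retnla had 303 CPM in WT and 2 UMIs in all in Ifnar1-SA, with a log2 ratio of -10.76 (-13.81 to -8.90) that came from the single WT droplet described above. Col3a1, a collagen chain, had 45.6 and 91.2 (0.9987), with 92.4% and 95.5% of its UMIs in 5 droplets. Its ratio was -1.16 in T only droplets. Ccl1, a chemokine of activated T cells, had 139 and 65.6 (-1.08), with 92.6% and 53.1% in 5 droplets. Ramp1 (27.9 and 52.5, 0.91), Gk (43.5 and 79.7, 0.87), Ifi207 (127 and 233, 0.87) and Gadd45gip1 (67.2 and 36.1, -0.90) completed the named genes, with at least 102 droplets carrying each in either library.

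Gene groups tied to contact and uptake had medians near that of all genes. Of 17 measured genes of costimulation and adhesion at T cell contacts 10 (58.8%, beside 63.7% of all genes) were higher, with a median of 0.12 and 0 past the limit in either direction. Icam1, which binds T cell integrins, had 67.4 CPM in WT and 62.7 in Ifnar1-SA (-0.11), and Cd86, a ligand of CD28, 98.6 and 107 (0.12). Of 10 measured genes of dead cell uptake 6 were higher, with a median of 0.02. Mertk, a receptor for dead cells, had 31.4 and 31.1 (-0.01) and its relative Axl 148 and 157 (0.09). The 13 measured lysosome genes had a median of 0.03. In both libraries these lists lay between the references: contact genes had a summed level of 2085 (WT) and 2450 (Ifnar1-SA) CPM in mixed droplets, 4208 and 5372 in T only and 873 and 857 in macrophage only droplets. Uptake genes had 6107 and 5689, beside 553 and 638, and 8584 and 7645. Most of the uptake sum was C1qa, a gene of the rule, with 5196 and 4745 CPM in mixed and 7419 and 6592 in macrophage only droplets. The place of this sum between the references thus follows largely from a rule gene and is given as a description.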

How the data were processed

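Single-cell RNA-seq was available as 1 library per genotype. The deposited matrices hold raw UMI counts of genes in barcodes. Cell Ranger 4 made them, per the file headers, with mm10 as the build, per the submitters' processing notes. The gene annotation's release and the aligner's settings: not given in the sources used here. Neither matrix had been filtered for cells: 4600 (WT) and 5880 (Ifnar1-SA) barcodes had at least 1000 UMIs, 4433 and 5566 of them at least 500 genes, and 4058 and 5001 at most 10% mitochondrial UMIs. Doublets were not removed. Scrublet in scanpy 1.11.5 set an automatic limit that marked 0 and 2 barcodes, which did not work as a caller. As an alternative, the top scores at 0.8% per 1000 barcodes were removed (132 and 200 planned, 156 and 201 with ties).

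UMIs were summed per library and population and scaled to CPM with Python 3.11.15, numpy 2.4.6, scipy 1.17.1 and pandas 2.3.3. Log2 ratios have intervals from the exact conditional binomial (Poisson counts), and shares have exact Clopper-Pearson ones. A gene was measured with a mean of at least 20 CPM and counted as past the limit when its interval was wholly outside 1.5-fold. Counts over all genes left out the rule genes and mitochondrial, ribosomal, antigen receptor segment, sex-linked and predicted genes. No test was possible, and intervals and calls were checked on simulated data. UMIs of 1 droplet are not independent of each other, so intervals are too narrow where few droplets carry a gene. Named genes were the 10 highest and 10 lowest past the limit with at least 50 CPM in either library and 30 UMIs, leaving out mitochondrial, ribosomal, receptor segment, sex-linked and predicted genes, with rule genes, partner genes and the 3 most abundant members of each list. Other list members in the text, such as Irf7, Pdcd1, Mrc1, Ccr2, Icam1 and Mertk, were chosen after their values were seen. Coordinates are from GENCODE on GRCm38. Droplets, partners and gene lists were chosen with earlier results of these data known. Genes of near-identical families (Ifit, Slfn, Ly6, granzyme, MHC) may share reads. Fewer cells of a type and less RNA per cell cannot be told apart in summed counts.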

Additional observations from a re-analysis of the deposited data

How the results depend on the processing

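No paired analysis was possible because each genotype is 1 library and the replicate numbers pair nothing; for the same reason no library could be left out. The mixed droplets were more frequent in Ifnar1-SA under each of the 8 alternatives run, by 5.62 to 7.38 percentage points and 1.72 to 2.17 times. Their share in Ifnar1-SA was 16.0% with at least 2000 UMIs, 15.7% with at most 5% mitochondrial UMIs, 13.5% with at least 40 macrophage UMIs and 16.5% over droplets with Xist and no Y-linked UMI, where CD8 partners were 18.7%. With at least 5 T cell UMIs the share was 7.20% in WT and 12.8% in Ifnar1-SA, and droplets with neither partner were 31.2% and 40.6%. Removing the top Scrublet scores took out 37.1% and 21.9% of mixed droplets, which made up 80.8% and 79.6% of those removed. It left shares of 5.48% and 11.9%, with 28.97% and 17.3% CD8 and 44.9% and 48.8% neither partners. With Foxp3 at 2 UMIs, Foxp3 partners were 15.6% and 20.49% and neither 47.9% and 57.2%. With CD8 at 1 UMI, CD8 partners were 41.8% and 25.7% and neither 30.9% and 40.8%. Thinned to 5000 UMIs, Foxp3 partners were 15.1% and 19.1%, CD8 19.4% and 13.1% and neither 65.5% and 67.7%. CD8 partners were a lower share in Ifnar1-SA than in WT under each of these. With a mean of at least 5 CPM, 46 genes were past the limit as higher and 43 as lower, over 8659 genes tested, and with median ratio scaling 19 and 33. The type I interferon median stayed between 0.48 and 0.60 over 12 alternatives. In each of 9 alternatives 0 genes were outside both references in both libraries. Col3a1 (0.04) and Ccl1 (-0.44) were no longer past the limit with at least 10 macrophage UMIs, Sirpb1b (0.84) after the Scrublet removal, and Col3a1 (0.72), Ramp1 (0.76) and Sirpb1b (0.73) with droplets weighted equally. The causes were not tested. At this depth a droplet with few T cell UMIs cannot be placed in a T partner class.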

Other observations

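Other gene groups of the mixed droplets are given beside all genes, of which 63.7% were higher in Ifnar1-SA with a median log2 ratio of 0.06. Of 21 measured proliferation genes 4 were higher and 17 lower, with a median of -0.08, beside 0 higher of 21 and a median of -0.44 in T only droplets. The T partner classes differed. In mixed droplets the median was 0.07 with Foxp3, -0.34 with CD8 and -0.13 with neither, and in T only droplets -0.44, -0.58 and 0.28. Of 14 hypoxia and glycolysis genes 3 were higher, with a median of -0.12. Of 16 dissociation stress genes 11 were higher, with a median of 0.10, and of 11 survival genes 6, with a median of 0.02. These 4 lists had 0 genes past the 1.5-fold limit in mixed droplets. Of 9 measured genes of lipid handling with Arg1 and Spp1, 4 were higher and 2 lower past the limit: Arg1 had 277 (WT) and 159 CPM (-0.80), and the fatty acid carrier Fabp5 432 and 243 (-0.83), while Fabp5 had 361 and 415 in macrophage only droplets. The inhibitory receptor list had 3 of 5 measured genes higher, and that of conventional CD4 T cells 6 of 8 with a median of 0.38.

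In the T only droplets 5 of 5 measured MHC class II genes were higher in Ifnar1-SA, with a median of 0.56. In macrophage only droplets 7 of 7 were lower. Of all genes, 55.0% were higher in T only and 69.4% in macrophage only droplets. The T partner classes of the T only droplets went opposite ways. With CD8 the median was 1.56, with 5 of 5 genes higher past the limit. With Foxp3 it was 0.25, with 5 of 5 higher. With neither it was -0.74, with 5 of 5 lower and 2 of them past the limit. Of all genes in these classes, 52.0% (CD8), 46.8% (Foxp3) and 51.5% (neither) were higher. Past the limit were 59 of 4785 genes as higher with CD8 and 32 of 5142 as lower with neither. In T only droplets Cd74 had 286 CPM (WT) and 415 (Ifnar1-SA), and in macrophage only droplets 11074 and 6246. The T only droplets from Ifnar1-SA also held more of the rule's macrophage genes, with 59.7 CPM of C1qa beside 39.95 in WT. Their part in the values of the mixed droplets was not tested.

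The cytokine gene Il10 had 5.81 CPM in mixed droplets of WT and 20.1 in Ifnar1-SA, in 23 and 92 droplets, with 65 UMIs in 1 droplet of Ifnar1-SA; it was chosen after its values were seen.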
